A study of Mus musculus with 3 samples.

Results

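Mouse epiblast stem cells (mEpiSCs) were compared with mouse embryonic stem cells (mESCs) held in Activin A and a MEK inhibitor, named Activin+PD by the submitters. The comparison used the arrays titled mEpiSCs and mESCs_Activin+PD, 2 of the 3 arrays of the series, each hybridised with the total RNA of 1 culture. The Activin+PD cells were EB3 mESCs, an established mouse line, after 64 days in N2B27 medium with 20 ng/ml Activin A and 2 µM PD0325901, an inhibitor of the kinase MEK. The mEpiSCs were derived from the same EB3 line by induction and were kept in N2B27 that held 20 ng/ml Activin A beside 12 ng/ml basic FGF (bFGF), for a time that the labels do not give. The array left over held EB3 mESCs after 34 days in 2i, which is N2B27 with 2 µM PD0325901 and 2 µM of the GSK3 inhibitor CHIR99021, and its values are given beside the others as a reference level. Activin A was thus common to both media compared, while bFGF was added and the MEK inhibitor left out in mEpiSCs. The parts played by the added bFGF, the missing inhibitor, the time in culture and the change of cell state cannot be told apart. All 3 arrays carry the same tissue label, that of mESCs, so the difference between the cultures is known from titles and source names.

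Naive mESCs correspond to the epiblast of the blastocyst before implantation, and mEpiSCs to the primed epiblast after implantation. Activin A binds activin receptors, which phosphorylate SMAD2 and SMAD3, and both mESCs and mEpiSCs can respond to it, but mEpiSCs need it to stay pluripotent. FGF acts through receptor tyrosine kinases, RAS, RAF and MEK on the kinase ERK, which drives naive cells towards the primed state. Blocking MEK keeps mESCs naive, and ERK output can be read from feedback genes such as the Sprouty, Spred and dual-specificity phosphatase families.

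In outline, mEpiSCs had lower RNA of nearly the whole naive list and of most germline genes. Higher RNA was seen for most primed and epithelial genes and for part of the ERK feedback and primitive streak genes. Targets of Activin/Nodal signalling, the ligand that both media share, were divided: Cer1, Fgf8 and Tdgf1 were higher in mEpiSCs, and Lefty1, Lefty2, Gdf3 and Nanog were lower. Of 32 oxidative phosphorylation genes compared, 0 were 2-fold apart, against 8.97% of all genes compared. Of 13 common reference genes 1 was (7.69%), close to the share of all genes.

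Values are deposited microarray intensities on a linear scale, and where 3 of them follow a gene, they belong to Activin+PD, 2i and mEpiSCs, in that order. A gene was compared where the brighter of the Activin+PD and mEpiSC arrays exceeded that array's background, the 95th percentile of 1400 olfactory and vomeronasal receptor probe sets, at intensities of 45.4, 48.2 and 47.6. With 1 array per culture there is no replicate error and no p-value, so a gene was counted as apart at a difference of at least 2-fold. The gene lists below were written with earlier results of these arrays known. Their shares, set beside those of all genes compared, describe the lists and are no test. Probe sets of 1 gene disagreed with a spread of 0.30 on the log2 scale over 526 genes, which measures the array and not the variation between cultures. Where the dimmer array was not above background, the fold is a lower limit taken against that background and is written as at least N-fold. Counts of genes apart use the plain difference between the arrays, so some genes counted have a limit under 2-fold. With values below background raised to it, 488 genes were counted as higher and 729 as lower. In RNA from whole cultures, fewer cells that express a gene and less RNA of it per cell cannot be told apart.

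Of 22180 genes on the array, 14375 were compared. In mEpiSCs, 516 genes (3.59%) passed 2-fold in the higher direction and 773 (5.38%) in the lower direction, together 8.97%, and 13086 lay within 2-fold. The median log2 difference over the genes compared was 0.042. At least 4-fold apart were 115 higher and 202 lower genes, and at least 8-fold apart were 30 higher and 60 lower genes. Of the 516 higher genes, 101 were not above background in Activin+PD, and of the 773 lower genes, 176 were not above background in mEpiSCs.

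**Figure D1:**
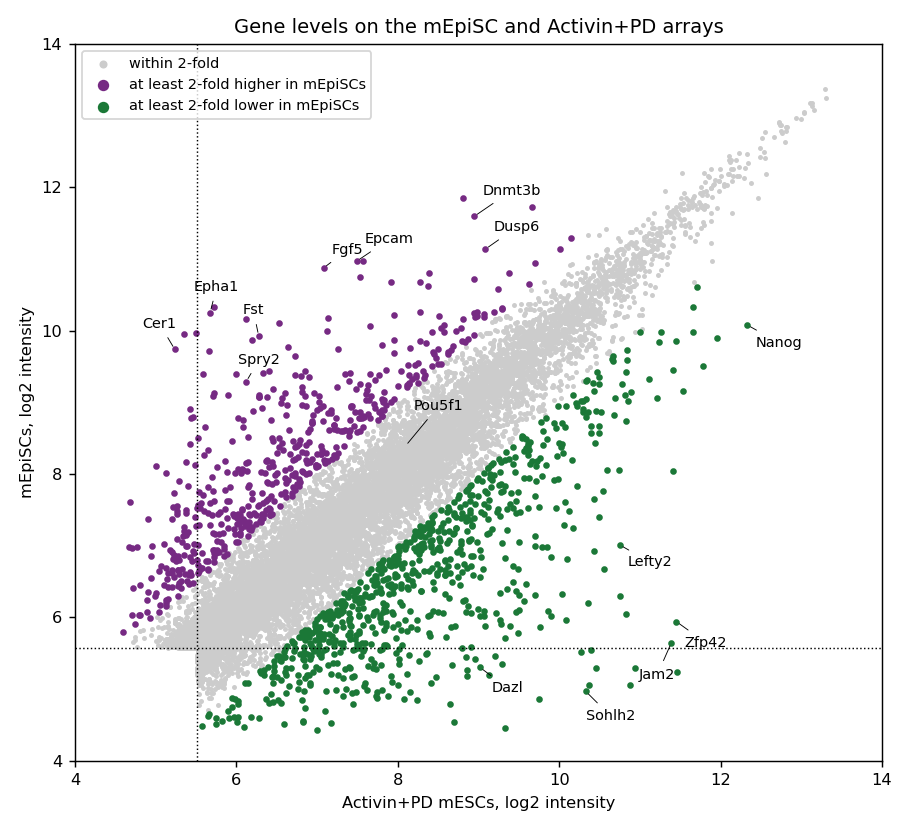
Level of each of the 14375 genes compared, as log2 intensity, on the Activin+PD array (horizontal) and the mEpiSC array (vertical); purple and green points are the 516 genes at least 2-fold higher and the 773 at least 2-fold lower in mEpiSCs, and dotted lines mark each array's background. Spry2, Fst, Epcam and Cer1 stand far above the diagonal, Zfp42, Jam2, Dazl and Sohlh2 far below it, and Pou5f1 on it.

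Spry2, Fst, Epcam and Dazl mark the comparison and were chosen with results of these arrays known, so their values are a description. Spry2, a feedback inhibitor of receptor tyrosine kinase signalling, had intensities of 69.6, 91.6 and 626 and was 8.99-fold higher in mEpiSCs. Fst, which encodes the activin-binding antagonist follistatin, had 77.4, 118 and 974 and was 12.6-fold higher. Epcam, an epithelial adhesion molecule, had 179.8, 214 and 2007 and was 11.2-fold higher. Dazl, an RNA-binding protein of germ cells, had 518, 213 and 39.5 and was at least 10.9-fold lower. For Spry2, Fst and Epcam the mEpiSC array was high and both mESC arrays were low, whereas Dazl was at background in mEpiSCs and higher in Activin+PD than in 2i. As for the labelled cell states, the pluripotency gene Pou5f1 was present on all 3 arrays at 273, 302 and 336. The primed marker Fgf5 was highest in mEpiSCs and the naive marker Zfp42 was near background there.

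Direct and commonly used targets of Activin/Nodal signalling did not lean one way. Among the 22 genes compared, mEpiSCs were at least 2-fold higher for 3 (13.6%) and lower for 4 (18.2%). Both shares were above those over all genes compared, 3.59% and 5.38%, while the median log2 difference was 0.057. Cer1, a secreted antagonist of Nodal, BMP and Wnt ligands, had intensities of 37.7, 32.6 and 854 and was at least 18.8-fold higher. Fgf8, a growth factor of the primitive streak, had 71.4, 60.2 and 229.8 and was 3.22-fold higher. Tdgf1, the Nodal co-receptor also called Cripto, had 1136, 462 and 2507 and was 2.21-fold higher. Cer1 was at background on both mESC arrays, while Tdgf1 was expressed on every array and highest in mEpiSCs.

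The lower members of that list included the feedback inhibitors of Nodal itself. Lefty2, a secreted inhibitor of Nodal, had intensities of 1724, 369.9 and 129 and was 13.4-fold lower in mEpiSCs. Its neighbour Lefty1 had 1656, 265 and 536 and was 3.09-fold lower. For both, Activin+PD was the highest of the arrays, but mEpiSCs stood above 2i for Lefty1 and below 2i for Lefty2. Gdf3, a TGF-beta family ligand of pluripotent cells, had 720.1, 812 and 54.9 and was 13.1-fold lower. Nanog, a pluripotency factor that SMAD2/3 binds, had 5149, 4312 and 1082 and was 4.76-fold lower. Gdf3 and Nanog were as bright in 2i, without Activin A, as in Activin+PD to within 1.5-fold. Other members stayed within 2-fold: Smad7, the inhibitory SMAD, was at 493, 238 and 267, Nodal at 555, 411 and 381 and Foxh1, the SMAD2 partner, at 328, 552 and 622. Skil was at 469, 256 and 606, Pmepa1 at 227, 108 and 325, Tgif1 at 399, 371 and 375 and Ski at 362, 281 and 333; these encode negative regulators of the pathway, and none of them was 2-fold apart.

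In the machinery of the pathway, 2 of 24 ligand, receptor, SMAD and processing genes compared passed 2-fold upwards and 2 downwards, 8.33% each. Over all genes compared the shares were 3.59% and 5.38%, and the median of the list was 0.13. Besides Fst, the ligand gene Tgfb1 was higher, with 169, 156 and 391, by 2.31-fold. Pcsk6, a protease that processes Nodal, had 425, 238 and 106 and was 4.02-fold lower, and Fstl1 had 553, 871 and 272 and was 2.03-fold lower. Smad3 was at 154, 159 and 154 and Furin, another processing protease, at 228, 169 and 224, which are nearly the same on the arrays compared. Tgfbr3, a co-receptor, had 116, 657 and 195 and was lower in both Activin cultures than in 2i.

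Part of the ERK feedback and target genes were higher in mEpiSCs, in the culture that had bFGF and no MEK inhibitor. Among the 29 genes compared, mEpiSCs were at least 2-fold higher for 12 (41.4%) and lower for 0, against 3.59% higher among all genes compared, and the median was 0.91. After Spry2, the phosphatase gene Dusp4 was highest by fold, with intensities of 77.7, 60.1 and 549, 7.07-fold higher. Egr1, an immediate early transcription factor gene, had 41.5, 50.05 and 288 and was at least 6.35-fold higher. These were low or at background on both mESC arrays, where the medium held PD0325901. Spred1 and Spred3, inhibitors of RAF activation, had 119, 180.0 and 652, 5.46-fold higher, and 87.5, 81.4 and 352, 4.02-fold higher. Spry4 had 62.98, 40.3 and 259 and was 4.12-fold higher.

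Dusp6, the phosphatase that acts on ERK, departed from that pattern in Activin+PD. It had 543, 92.04 and 2255, so that Activin+PD lay between 2i and mEpiSCs, and it was 4.15-fold higher in mEpiSCs. A second Dusp6 probe set was not above background. Myc, a target that ERK signalling also stabilises as a protein, had 247, 213 and 932 and was 3.78-fold higher. Etv5, an ETS factor induced by FGF, had 326, 192 and 911 and was 2.79-fold higher, but its second probe set gave a log2 difference of -0.59, the opposite direction. Etv1 had 321, 235 and 648 and was 2.02-fold higher, with 0.78 on the log2 scale from its second probe set. Il17rd, an FGF receptor antagonist also called Sef, had 168, 212 and 383 and was 2.28-fold higher, and Ier3 had 73.2, 74.7 and 153 and was 2.09-fold higher.

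Part of the list lay just under the threshold. Junb at 67.7, 75.9 and 135, Spry1 at 78.5, 64.1 and 155 and Etv4 at 95.8, 84.8 and 179.8 were 1.99-fold, 1.97-fold and 1.88-fold higher. Ccnd1, the cyclin D1 gene, was at 445, 927 and 827, higher in 2i than in either compared culture. Spred2 at 462, 429 and 441, Dusp9 at 418, 203 and 385 and Errfi1 at 259, 242 and 232 were nearly alike in the cultures compared. Lrig1, a suppressor of ErbB receptors, was at 276, 218 and 142, the one member near 2-fold lower. Fos at 54.8, 55.7 and 80.4, Dusp2 at 90.1, 82.7 and 161, Phlda1 at 62.3, 70.3 and 113 and Epha2 at 651, 359.9 and 889.8 also stayed within 2-fold.

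**Figure D2:**
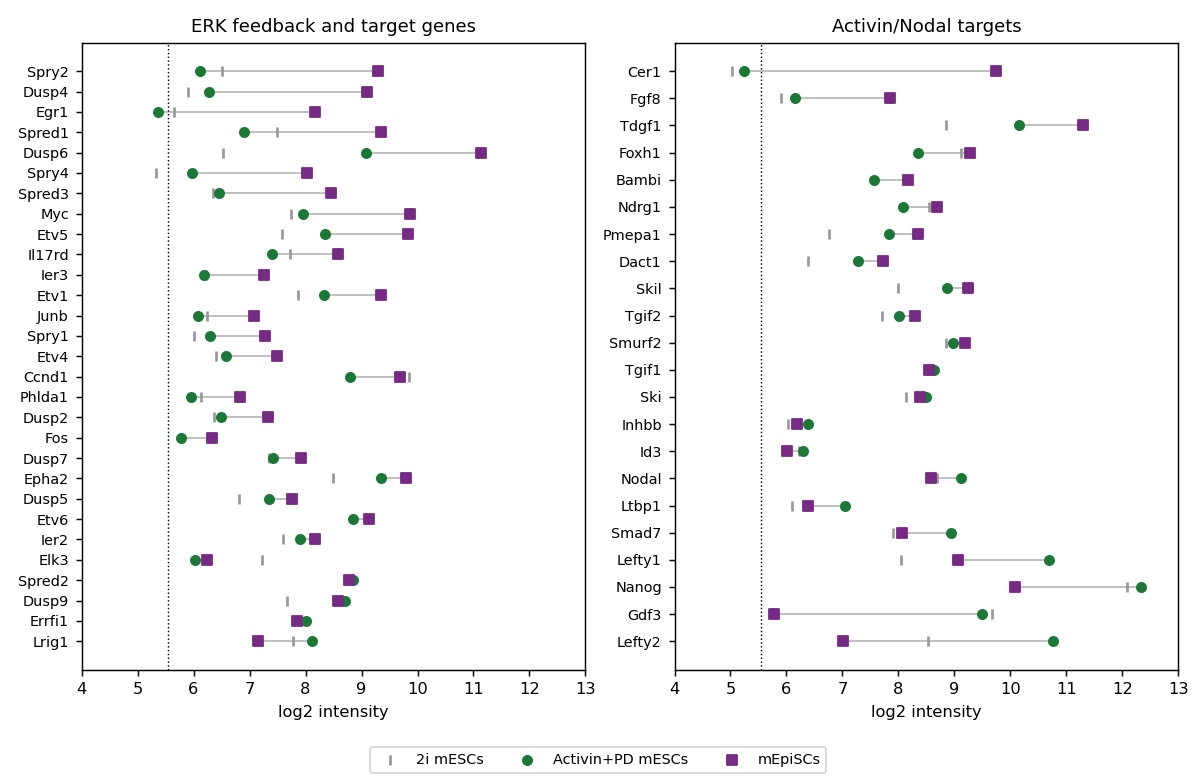
Log2 intensity on the Activin+PD array (green circles), the 2i array (grey ticks) and the mEpiSC array (purple squares) of 29 ERK feedback and target genes (left) and 22 Activin/Nodal targets (right), ordered by the difference between mEpiSCs and Activin+PD; the dotted line marks background. Left, 12 genes are at least 2-fold higher and 0 lower in mEpiSCs; right, 3 are higher and 4 lower.

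FGF ligands and receptors were mixed, with 3 of 20 past 2-fold upwards, 3 downwards (15% each) and a median of -0.18. Among all genes compared, 3.59% were higher and 5.38% lower. Fgf5, the ligand used as a marker of the primed epiblast, had 135, 48.4 and 1879 and was 13.9-fold higher. It was above background in Activin+PD and close to background in 2i. Fgf4, the main autocrine FGF of naive mESCs, had 1810.5, 1225 and 426 and was 4.25-fold lower. The receptor gene Fgfr2 had 265, 146 and 72.5 and was 3.66-fold lower, and Gab1, an adaptor downstream of receptors, had 998, 1209.7 and 185 and was 5.39-fold lower. Fgfbp1, which encodes a carrier that releases FGF from the matrix, had 162, 132 and 394 and was 2.43-fold higher. Fgfr1, the main FGF receptor of these cells, named here after its values were seen, had 489, 397 and 312, within 2-fold.

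The naive genes lay further apart than any other list. The list was written with earlier results of these arrays known, so its share is a description. Of 28 compared, 24 were at least 2-fold lower in mEpiSCs and 0 higher, against 5.38% lower among all genes compared. Their median log2 difference was -3.33. Both mESC arrays were bright for most of them, so the low array was that of mEpiSCs. Zfp42, the gene for the zinc finger protein REX1, had intensities of 2802, 2321 and 61.4 and was 45.6-fold lower. Jam2, a junctional adhesion molecule, had 2682, 2317 and 50.1 and was 53.5-fold lower. Tbx3, a transcription factor gene of naive cells, had 1313, 1228 and 73.7 and was 17.8-fold lower. In mEpiSCs these genes lay near background.

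Several naive regulators were not above background in mEpiSCs. Nr0b1, the orphan receptor gene for DAX1, had 1327, 1065 and 33.4 and was at least 27.9-fold lower. Fbxo15, a target of OCT4 and SOX2, had 1409, 1118 and 39.2 and was at least 29.6-fold lower. Tfcp2l1, a transcription factor downstream of LIF and of GSK3 inhibition, had 1230.0, 1186 and 46.03 and was at least 25.9-fold lower. Prdm14, which represses FGF receptor and DNA methyltransferase genes, had 459, 234 and 43.7 and was at least 9.65-fold lower. Prdm14 was brighter in Activin+PD than in 2i, while Tfcp2l1 was alike on those arrays.

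The Krüppel-like factors of the naive list were lower to different degrees. Klf2, whose protein ERK phosphorylation destabilises, had 1097, 1069 and 112 and was 9.76-fold lower. Klf4 had 261, 313 and 74.2 and was 3.51-fold lower, and Klf5 had 1435, 1107 and 657 and was 2.19-fold lower, with a level still well above background in mEpiSCs. Nr5a2, an orphan receptor that can reprogramme mEpiSCs, had 1052, 1184 and 80.6 and was 13.1-fold lower. Esrrb, a target of GSK3 inhibition through TCF3, had 149, 145 and 51.6 and was 2.88-fold lower. Of further members, Tcl1 had 623, 512 and 60.2, 10.4-fold lower, and Pecam1, an adhesion molecule of the inner cell mass, had 950.1, 585 and 64.8, 14.7-fold lower. Alpl, the alkaline phosphatase gene, had 1541, 2031 and 265, 5.81-fold lower, with -2.12 on the log2 scale from a second probe set.

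Some naive genes were also brighter in Activin+PD than in 2i. Calcoco2, an autophagy receptor gene, had 1875, 441 and 33.2 and was at least 39.4-fold lower in mEpiSCs than in Activin+PD. Mras, a RAS-related GTPase gene, had 307, 85.3 and 41.9 and was at least 6.45-fold lower. For both, 2i was between the cultures compared. The members within 2-fold were Stat3 at 271, 326 and 321, Gbx2 at 77.7, 163 and 90.5, Dppa3 at 102, 105 and 55.2 and Dppa5a at 65.3, 60.9 and 52.8; Gbx2, Dppa3 and Dppa5a were dim on every array.

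Of 18 core pluripotency genes, 8 were at least 2-fold lower in mEpiSCs (44.4%, against 5.38% of all genes compared) and 2 higher, and all 18 were above background on both arrays. Pou5f1, the gene for OCT4, was within 2-fold, 1.23-fold brighter in mEpiSCs. Sox2 had 2419.7, 2065 and 920.1 and was 2.63-fold lower, and Nanog was lower as given above, but both were far above background in mEpiSCs. Sall4 was within 2-fold at 1387, 1246 and 1171. Rex2 had 1377, 1541 and 122 and was 11.3-fold lower, Dppa4 had 489, 417 and 116 and was 4.23-fold lower, and Dppa2 had 3243, 1626 and 1007 and was 3.22-fold lower. Zfp57, which protects imprints, had 1309, 1042 and 465 and was 2.82-fold lower. The epithelial splicing regulator Esrp1, also on that list, had 83.4, 42.2 and 538 and was 6.46-fold higher.

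Of 29 primed and formative genes compared, 17 were at least 2-fold higher in mEpiSCs (58.6%, against 3.59% of all genes compared) and 4 lower, with a median of 1.26. Epha1, an ephrin receptor gene, had 51.03, 53.9 and 1221 and was 23.9-fold higher. Sema6a, a transmembrane semaphorin, had 91.9, 52.3 and 1108 and was 12.1-fold higher. Cldn6, a tight junction claudin, had 99.5, 109.7 and 874 and was 8.79-fold higher. These were low on both mESC arrays. Dnmt3b, a de novo DNA methyltransferase gene, had 494, 746 and 3097 and was 6.27-fold higher. Pou3f1, the gene for the POU factor OCT6, had 67.6, 57.3 and 403 and was 5.95-fold higher. Igfbp3 had 334, 165 and 1797 and was 5.38-fold higher, Pim2 had 242, 357 and 1636 and was 6.77-fold higher, and Wnt8a had 67.5, 233 and 429.9 and was 6.37-fold higher. Lef1, the TCF family factor gene, had 184, 299.9 and 441 and was 2.39-fold higher. Sox11 had 40.1, 52.8 and 133 and was at least 2.93-fold higher.

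Some genes used as markers of priming did not separate the Activin cultures. Otx2, a homeobox gene that drives the exit from the naive state, had 225, 46.9 and 331, within 2-fold between Activin+PD and mEpiSCs and at background in 2i. Utf1 at 1467, 758 and 2007, Foxd3 at 195, 130.4 and 241, Bex1 at 2413, 1105 and 2774, Zic2 at 454, 492 and 549, Sox3 at 123, 98.4 and 179 and Zic5 at 358, 230.2 and 463 were likewise within 2-fold. Nkx1-2 had 80.6, 740.1 and 168 and was 2.08-fold higher, but was highest in 2i, and its second probe set gave a log2 difference of 0.07. Cdh2, the N-cadherin gene, had 282, 235 and 617 and was 2.19-fold higher, with 1.16 on the log2 scale from its second probe set.

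The 4 lower members of the primed list were brightest in Activin+PD. Hesx1, a homeobox gene of the early forebrain, had 191, 35.5 and 32.9 and was at least 4.02-fold lower; it was at background in mEpiSCs and in 2i. Dnmt3a had 584, 358 and 255 and was 2.29-fold lower. Tcf15, a bHLH factor gene of cells leaving the naive state, had 536, 280.2 and 258 and was 2.07-fold lower. Ncam1, the neural cell adhesion molecule gene, had 480.1, 399 and 116 and was 4.15-fold lower.

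**Figure D3:**
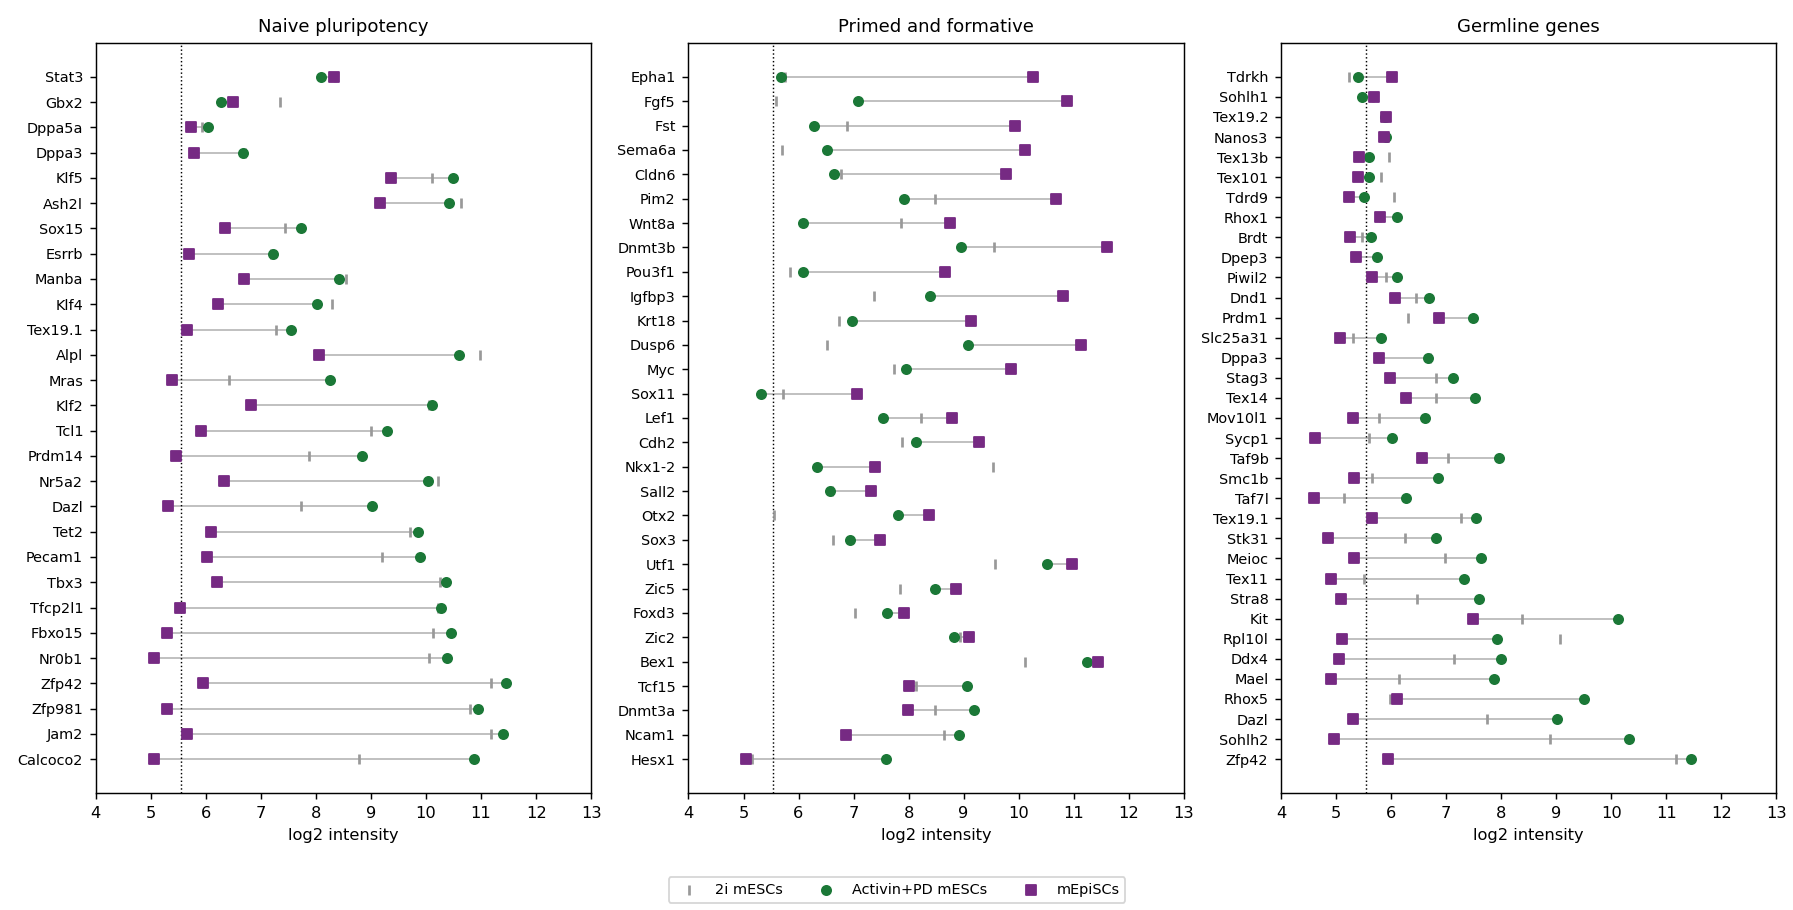
Log2 intensity on the Activin+PD array (green circles), the 2i array (grey ticks) and the mEpiSC array (purple squares) of the 28 naive, 29 primed and 35 germline genes compared, ordered by the difference between mEpiSCs and Activin+PD; the dotted line marks background. In mEpiSCs 24 naive and 20 germline genes are at least 2-fold lower and 17 primed genes at least 2-fold higher.

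Other signalling pathways differed in parts. Of 26 Wnt target genes compared, 6 were at least 2-fold higher in mEpiSCs (23.1%) and 2 lower (7.69%), with a median of 0.46. Over all genes compared, 3.59% were higher and 5.38% lower. GSK3 was inhibited in the 2i culture and not in the cultures compared. Sp5 had 63.1, 172 and 143, 2.27-fold higher, and the secreted inhibitor gene Dkk1 had 66.4, 89.1 and 152, 2.29-fold higher. Rspo3, a Wnt agonist, had 41.3, 46.05 and 97.3 and was at least 2.14-fold higher. Lgr5, a receptor for R-spondins, had 26.1, 30.5 and 125 and was at least 2.75-fold higher, and its second probe set gave 0.29 on the log2 scale near background. Notum, a Wnt-inactivating enzyme gene, went the other way with 338, 373 and 53.2, 6.35-fold lower. So did Sfrp1, a secreted Wnt inhibitor, with 1180.0, 632 and 511, 2.31-fold lower. Cdx1 at 51.9, 197 and 54.2 and Cdx2 at 57.1, 399 and 60.2 were dim in both Activin cultures and bright in 2i alone. Axin2, a common Wnt reporter gene named here after its values were seen, had 177, 691 and 315, within 2-fold between the cultures compared.

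BMP targets were 4 of 21 at least 2-fold lower (19%) and 1 higher (4.76%), against 5.38% and 3.59% of all genes compared. Their median was -0.18. Id2 had 97.5, 70.6 and 455, 4.67-fold higher, whereas Id4 had 273, 350.0 and 62.7, 4.35-fold lower; both encode inhibitors of bHLH factors. Msx2 had 115, 181 and 47.9 and was 2.39-fold lower, and Gata3 had 209, 70.99 and 87.8 and was 2.38-fold lower, with -0.22 on the log2 scale from a second Gata3 probe set. Among 18 genes of LIF signalling, 5 were lower (27.8%) and 1 higher (5.56%). The median was -0.13, or 0.0295 over the members above background on both arrays. The receptor genes for LIF were among the lower ones: Lifr had 554, 558 and 165, 3.36-fold lower, and Il6st, which encodes the shared subunit gp130, had 848, 1219.6 and 289.6, 2.93-fold lower. Socs2, a feedback inhibitor, had 323, 347 and 669 and was 2.07-fold higher, with 0.27 from its second probe set, and Bcl3 at 79.4, 88.5 and 81.1 and Socs1 at 67.6, 63.99 and 78.5 were within 2-fold. No LIF is listed for any of the media.

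Primitive streak genes were present in mEpiSCs in part. Of 24 compared, 8 were at least 2-fold higher (33.3%) and 0 lower, with a median of 0.25. Over all genes compared, 3.59% were higher and 5.38% lower. Mixl1, a homeobox gene of the streak, had 63.9, 65.05 and 673 and was 10.5-fold higher. Lhx1 had 45.95, 55.6 and 362 and was 7.88-fold higher, and Eomes, a T-box factor gene induced by Nodal, had 116, 133 and 692 and was 5.98-fold higher. Wnt3, the Wnt ligand needed to form the streak, had 70.6, 57.02 and 366 and was 5.19-fold higher. These were near background to dim on both mESC arrays. Tbx6 at 71.1, 73.5 and 73.3, Mesp2 at 83.7, 85.8 and 82.3 and Wnt3a at 47.2, 46.1 and 45.6, which mark later mesoderm, differed by less than 1.1-fold.

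Among 17 definitive endoderm genes, mEpiSCs were higher by at least 2-fold for 6 and lower for 0, with a median of 0.74. Besides Cer1 and Lhx1, the forkhead genes Foxa2, with 81.7, 76.04 and 258, and Foxa1, with 85.6, 66.9 and 172, were 3.16-fold higher and 2.01-fold higher. Gata6 had 38.3, 38.3 and 136 and was at least 3.002-fold higher. Gata4 at 94.2, 101 and 109, Hhex at 73.01, 69.5 and 75.9 and Sox17 at 49.4, 52.9 and 74.7 were within 2-fold and dim. The streak list shares Fst with the primed list and Lhx1 with the endoderm list, and Cer1 is on the endoderm and Activin/Nodal target lists. The counts of these lists are thus not separate.

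Markers of other cell types that such cultures could hold were looked at in the same way. Over all genes compared, 3.59% were higher and 5.38% lower. Of 21 genes of extraembryonic endoderm compared, 2 were at least 2-fold higher (9.52%) and 0 lower, with summed intensities of 4272.6, 3437 and 3959. Of its defining genes, Gata6 was higher, Gata4, Sox17 and Dab2 were within 2-fold and Sox7 was not above background. Neuroectoderm genes numbered 2 higher and 2 lower of 21 (9.52% each), with summed intensities of 3384, 2487 and 3206. Nes, the nestin gene, had 152, 157 and 594 and was 3.91-fold higher, whereas the neuronal tubulin gene Tubb3 had 641, 257 and 113 and was 5.65-fold lower, and Pax6 at 81.3, 56.01 and 57.2 and Sox1 at 78.7, 69.7 and 68.05 were dim and within 2-fold. Trophectoderm genes numbered 4 higher and 4 lower of 19 (21.1% each), with summed intensities of 3138, 2893 and 3260.2. Their higher members were Eomes and the keratin genes Krt8, Krt18 and Krt19, and the lower ones were Pecam1, Fgfr2, Gata3 and Tfap2c. Cdx2 was dim in the cultures compared.

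Feeder fibroblasts are a further possible source of RNA, although the labels name none. Of 14 fibroblast markers compared, 3 were at least 2-fold higher in mEpiSCs (21.4%, against 3.59% of all genes compared) and 0 lower. The median was 0.31 and the summed intensities were 2688, 3538 and 3656. Twist1 had 73.2, 70.2 and 202, 2.75-fold higher, Tagln had 65.4, 60.02 and 159, 2.44-fold higher, and Mmp2 had 78.8, 57.7 and 166, 2.1-fold higher. Several matrix genes of fibroblasts were at or near background: Postn at 25.5, 25.9 and 26.02, Lum at 23.8, 23.1 and 24.4, Dcn at 22.6, 24.1 and 31.2 and Col3a1 at 56.6, 50.5 and 53.9. Col5a1, another collagen gene, at 132, 127 and 154, the smooth muscle actin gene Acta2 at 106, 100.3 and 194, Col1a1 at 88.7, 82.5 and 119.6 and Pdgfrb at 93.7, 95.6 and 94.5 were within 2-fold and above background on all arrays. Col1a2 was also within 2-fold and above background on the arrays compared. Fap, Lox and S100a4, named after their values were seen, were not above background on any array.

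Of 33 epithelial genes, 19 were at least 2-fold higher in mEpiSCs (57.6%, against 3.59% of all genes compared) and 1 lower, with a median of 1.15. Epcam led the list, as given above. Cldn7 had 35.01, 50.3 and 258 and was at least 5.68-fold higher, next to Cldn6 among the claudins of tight junctions, but Cldn3 was at 189.6, 185 and 178, within 2-fold. Prss8, a membrane serine protease gene, had 94.96, 98.1 and 536 and was 5.64-fold higher. The keratin genes Krt18, with 125, 106 and 562, and Krt8, with 130.3, 154 and 544, were 4.497-fold higher and 4.18-fold higher, and the second Krt18 probe set gave 1.78 on the log2 scale. Rab25, a GTPase of epithelial trafficking, had 66.9, 60.01 and 268 and was 4.01-fold higher. The E-cadherin gene Cdh1, named here after its values were seen, was high on every array at 1545, 1696 and 2232, within 2-fold. Llgl2, a polarity gene also named after its values were seen, was the lower member, at 543, 437 and 218, 2.49-fold lower.

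Mesenchymal genes differed in both directions. Among 28 mesenchymal and contractile genes compared, 10 passed 2-fold upwards (35.7%) and 4 downwards (14.3%), with a median of 0.50. Over all genes compared, 3.59% were higher and 5.38% lower. Cnn1, the calponin gene of contractile cells, had 59.3, 37.3 and 549 and was 9.26-fold higher. Ccn1, a matricellular protein gene, had 309, 188 and 1639 and was 5.299-fold higher, and S100a6 had 42.1, 35.2 and 229 and was at least 5.04-fold higher. Among the higher genes, the calponins Cnn1 and Cnn2, the tropomyosins Tpm1 and Tpm4, and Tagln encode proteins that bind actin; Cnn2 and Tpm1 are named after their values were seen. The lower ones were matrix genes, Ccn2 and the integrin gene Itga5: Fn1, the fibronectin gene, had 2965, 3301 and 574, 5.16-fold lower, and Tgfbi had 508, 266 and 69.2, 7.34-fold lower. Ccn2 had 402, 142 and 98.5 and was 4.08-fold lower, with -0.27 on the log2 scale from a second probe set not above background on both arrays. Of the transcription factor genes tied to the mesenchymal state, Twist1 was higher, while Snai1 was at 91.3, 135 and 97.5, Snai2 at 82.1, 99.6 and 57.9 and Zeb1 at 81.6, 82.9 and 42.7, all 3 within 2-fold and Zeb1 not above background in mEpiSCs; Snai2 and Zeb1 are named after their values were seen.

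Matrix genes and integrins had a median of -0.43. Of 29 compared, 5 were at least 2-fold lower (17.2%) and 3 higher (10.3%), against 5.38% and 3.59% of all genes compared. Nid1, which encodes the basement membrane linker nidogen, had 1728, 1595 and 78.4 and was 22.04-fold lower, with -3.58 on the log2 scale from a second probe set. Nid2 had 1836, 1646 and 848 and was 2.17-fold lower. The fibronectin receptor subunit gene Itga5 had 571, 178 and 249.01 and was 2.29-fold lower, in the same direction as Fn1. Itga1, a subunit of a collagen and laminin receptor, had 40.5, 46.7 and 141 and was at least 3.11-fold higher. Lama1, a laminin chain gene, was at 69.2, 218 and 69.3, equal in the cultures compared and higher in 2i.

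Ephrin, semaphorin, plexin and slit genes, which guide cell contacts, were 8 of 37 at least 2-fold higher (21.6%) and 3 lower (8.11%). Their median was 0.22, and the shares over all genes compared were 3.59% and 5.38%. Beside Epha1 and Sema6a, Epha7 had 69.4, 117 and 285 and was 4.098-fold higher, and the secreted ligand gene Slit3 had 95.1, 81.2 and 322 and was 3.39-fold higher. Sema3c had 52.4, 41.6 and 145 and was 2.77-fold higher, and Efna5 had 62.4, 61.6 and 150.2 and was 2.41-fold higher. In the other direction, Sema4b had 653, 506 and 183 and was 3.57-fold lower, and Efnb1 had 358, 296 and 124 and was 2.89-fold lower.

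**Figure D4:**
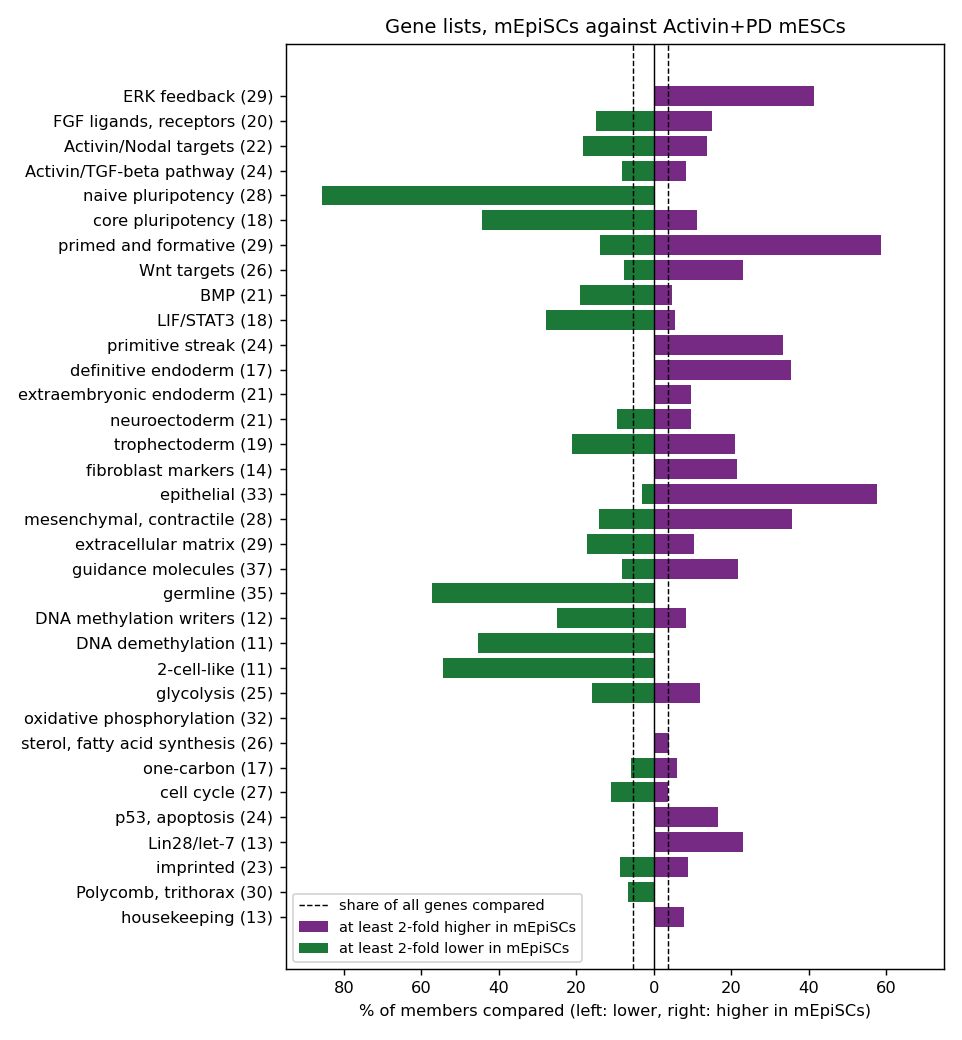
Share of the members compared in each gene list (number in brackets) that were at least 2-fold higher (purple, to the right) or at least 2-fold lower (green, to the left) in mEpiSCs than in Activin+PD, in percent; dashed lines mark the shares over all genes compared, 3.59% higher and 5.38% lower. The naive, germline and 2-cell-like lists extend furthest to the left, the primed and epithelial lists furthest to the right, and oxidative phosphorylation has no bar.

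Of 35 germline genes compared, 20 were at least 2-fold lower in mEpiSCs (57.1%, against 5.38% of all genes compared) and 0 higher, with a median of -1.32, and 5 more were not above background on either array. Many of these genes carry CpG-rich promoters that are methylated in the epiblast after implantation. For 13 of the 20 the mEpiSC array was not above background. Sohlh2, a bHLH factor gene of early germ cells, had 1286, 471 and 31.3 and was at least 27.03-fold lower. Ddx4, the germ cell helicase gene also called Vasa, had 257, 142 and 33.3 and was at least 5.39-fold lower. Mael, which acts in piRNA-guided silencing of transposons, had 235, 70.8 and 30.1 and was at least 4.94-fold lower. As with Dazl, 2i lay between Activin+PD and mEpiSCs for Sohlh2, Ddx4 and Mael.

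Rhox5, an X-linked homeobox gene, had 726, 62.8 and 68.5 and was 10.6-fold lower; here 2i was as low as mEpiSCs. Kit, the receptor gene of germ and stem cells, had 1109.7, 331 and 178 and was 6.22-fold lower. Rpl10l, an autosomal retrogene of a ribosomal protein, had 243, 536 and 34.3 and was at least 5.11-fold lower, with its highest level in 2i. Stra8 and Tex11, meiotic genes named here after their values were seen, had 192, 88.3 and 33.9, at least 4.04-fold lower, and 160.1, 45.3 and 29.9, at least 3.37-fold lower. Taf7l, a germ cell form of a general transcription factor subunit, also named after its values were seen, had 77.3, 35.4 and 24.2; the limit set by background there is 1.62-fold. Tex19.2 at 59.5, 60.9 and 60.3, Nanos3 at 59.9, 59.97 and 58.5 and Tex13b at 48.4, 62.6 and 42.5 were dim on all arrays and within 1.2-fold between the cultures compared. The list shares Zfp42, Dazl, Dppa3 and Tex19.1 with the naive list.

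Promoter windows of RefSeq, 250 bases before each gene's start on the GRCm38.p6 build, were searched for the E-box CACGTG, which reads the same on both strands. It was found in 15 of 36 germline genes with a window (41.7%), against 6.86% of 27025 genes and 10.8% of the 10871 genes whose window held at least 10 CpG. Among germline genes at least 2-fold lower, 8 of 19 held it (42.1%), and among those compared and within 2-fold, 4 of 12 (33.3%). The motif is a match of letters and not a measured site. The ETS core CCGGAA, searched on both strands, was in 2 of 36 germline genes and 0 of 20 ERK feedback genes with a window, against 13.6% of all genes. The windows of Mael, Ddx4 and Taf7l are shown because they hold the E-box, here in capitals, and that of Dazl because Dazl marks the comparison and holds none. Ddx4 and Taf7l were chosen for printing after their values were seen. All 4 lie on the minus strand and are written 5′ to 3′ on the gene's strand, ending at the base before the annotated start.
Mael, chr1:166238745-166238994: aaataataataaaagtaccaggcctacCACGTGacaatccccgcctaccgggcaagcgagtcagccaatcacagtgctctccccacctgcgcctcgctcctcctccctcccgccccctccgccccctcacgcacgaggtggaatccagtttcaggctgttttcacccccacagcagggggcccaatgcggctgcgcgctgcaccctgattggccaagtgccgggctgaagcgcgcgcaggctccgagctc
Ddx4, chr13:112652311-112652560: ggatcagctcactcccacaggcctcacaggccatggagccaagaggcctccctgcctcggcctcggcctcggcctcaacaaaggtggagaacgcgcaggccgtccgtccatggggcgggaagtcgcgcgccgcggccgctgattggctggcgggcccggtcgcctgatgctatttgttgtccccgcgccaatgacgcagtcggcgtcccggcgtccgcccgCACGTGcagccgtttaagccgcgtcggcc
Taf7l, chrX:134476491-134476740: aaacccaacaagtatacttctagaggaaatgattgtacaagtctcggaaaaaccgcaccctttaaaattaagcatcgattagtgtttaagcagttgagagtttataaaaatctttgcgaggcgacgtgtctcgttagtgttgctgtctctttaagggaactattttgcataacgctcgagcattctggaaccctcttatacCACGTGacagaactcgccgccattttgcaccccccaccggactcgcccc
Dazl, chr17:50293621-50293870: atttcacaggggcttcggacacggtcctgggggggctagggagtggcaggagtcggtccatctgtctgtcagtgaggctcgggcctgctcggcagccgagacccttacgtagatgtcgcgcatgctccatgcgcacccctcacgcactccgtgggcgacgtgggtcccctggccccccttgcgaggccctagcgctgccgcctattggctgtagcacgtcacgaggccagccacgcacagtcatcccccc
The E-box began at base 28 of the Mael window, 222 of the Ddx4 window and 202 of the Taf7l window. The windows held 18, 31, 14 and 20 CpG in the order printed.

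DNA methylation enzymes differed gene by gene. Over all genes compared, 3.59% were higher and 5.38% lower. Of 12 writers and readers compared, 1 was at least 2-fold higher in mEpiSCs (8.33%) and 3 lower (25%). Dnmt3b was the higher one, and Dnmt3a, given above, and Dnmt3l, a cofactor of both with 209.7, 195 and 55.02, 3.81-fold lower, were lower. The maintenance genes Dnmt1 at 938, 1136 and 869 and Uhrf1 at 1124, 1252 and 1132 were within 1.1-fold. Of 11 genes linked to demethylation, 5 were lower (45.5%) and 0 higher, with a median of -0.89. Tet2, a 5-methylcytosine dioxygenase gene, had 928, 839 and 68.4 and was 13.6-fold lower. Tet1 at 1101, 751 and 766 and Tet3 at 72.6, 75.9 and 126, of the same family, were within 2-fold. Apobec3, a cytidine deaminase gene, had 1079.8, 569 and 196 and was 5.52-fold lower, and Idh2 had 1396, 1309.8 and 346 and was 4.04-fold lower.

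Some genes of the 2-cell-like state, which a small share of mESCs enters at a time, were lower in mEpiSCs. Of 22 on the array, 11 were compared. Of these, 6 were at least 2-fold lower (54.5%, against 5.38% of all genes compared) and 0 higher. The median was -1.26, but with both arrays above background 5 members gave a median of 0.093. Zscan4e had 416, 293 and 23.2 and was at least 8.75-fold lower, and Zscan4b had 270.0, 208 and 29.1 and was at least 5.67-fold lower. The Zscan4 genes are near-identical copies, and the probes may read several of them together. Gm4340, of another repeated family, had 346, 367 and 90.1 and was 3.84-fold lower, while Eif1a was at 699.8, 846 and 769.8, within 2-fold.

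Among Polycomb and trithorax genes, 2 of 30 were lower (6.67%, against 5.38% of all genes compared) and 0 higher, with a median of -0.26. Ash2l had 1375, 1582 and 572, 2.402-fold lower, and Kdm5b had 2047, 1685 and 1015, 2.02-fold lower. Ezh2, the methyltransferase gene of PRC2, was at 1143, 1095 and 1195. Imprinted genes were 2 higher and 2 lower of 23 (8.7% each), against 3.59% and 5.38% of all genes compared. Grb10 had 153, 144 and 859 and was 5.61-fold higher, Phlda2 had 110.0, 220.1 and 354 and was 3.22-fold higher, and Impact had 1411, 1001 and 686 and was 2.06-fold lower. Plagl1 had 209, 137 and 41.2 and was at least 4.399-fold lower, but its second probe set, not above background on both arrays, gave a log2 difference of -0.10. Dlk1 at 93.4, 78.7 and 97.6 and Mest at 1651, 799 and 1770.3 were within 1.1-fold between the cultures compared.

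Metabolic lists differed among themselves. Of 32 oxidative phosphorylation genes compared, 0 were 2-fold apart in either direction, with a median of -0.17, and Cox7a1 at 198, 209 and 106 and Cox5a at 1395, 1276 and 803 were the furthest. Glycolysis genes were 3 higher (12%) and 4 lower (16%) of 25, shares above those over all genes, with a median of 0.12. Pfkp, a phosphofructokinase gene, had 1382, 1106 and 200.4 and was 6.897-fold lower, and Hk1, a hexokinase gene, had 153, 219 and 65.6 and was 2.33-fold lower. The lactate exporter gene Slc16a3 had 405, 127 and 848 and was 2.09-fold higher, and Pdk1, which inhibits pyruvate dehydrogenase, had 138, 251 and 314 and was 2.27-fold higher, with 0.07 on the log2 scale from a second probe set near background. Of 26 sterol and fatty acid synthesis genes, 1 was at least 2-fold higher (3.85%, against 3.59% of all genes compared), although the median was 0.49. That gene was Pmvk, of the mevalonate pathway, with 279.6, 179 and 736, 2.63-fold higher. Cyp51 at 591, 432 and 1129 and Lss at 697, 449.9 and 1312, of sterol synthesis, lay just under the threshold. In folate metabolism, Mthfd2l had 112, 102 and 501, 4.46-fold higher, and Amt, of the glycine cleavage system, had 700.2, 934 and 260.0, 2.69-fold lower.

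Of 27 cell cycle genes compared, 1 was at least 2-fold higher (3.7%) and 3 lower (11.1%), against 3.59% and 5.38% over all genes compared. Cdk6, a G1 kinase gene, had 139.8, 269.6 and 1024 and was 7.33-fold higher. Its partner gene Ccnd2 had 876, 84.99 and 422 and was 2.08-fold lower, highest in Activin+PD and low in 2i. Cdkn2a had 367, 329 and 102 and was 3.605-fold lower, and Rbl2 had 147, 130.2 and 50.6 and was 2.91-fold lower; both encode brakes on G1 progression. The proliferation genes Mki67 at 1189, 1229.7 and 1228 and Mcm2 at 1288, 1609 and 1287 were within 1.1-fold between the cultures compared. Of 24 p53 and apoptosis genes, 4 were higher (16.7%) and 0 lower. Perp had 112, 109 and 595 and was 5.31-fold higher, Casp8, an initiator caspase gene, had 116, 274 and 496 and was 4.26-fold higher, and Bcl2l11, the gene for the BH3-only protein BIM, had 132, 92.8 and 311 and was 2.36-fold higher. Bcl2 had 47.4, 50.4 and 103 and was 2.18-fold higher, with 0.28 from a second probe set not above background on both arrays.

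The LIN28 and let-7 axis had 3 of 13 members higher (23.1%) and 0 lower, against 3.59% and 5.38% of all genes compared. Lin28b, whose protein blocks let-7 maturation, had 38.5, 39.7 and 187 and was at least 4.12-fold higher, while Lin28a at 669.5, 588 and 1163 was within 2-fold. Hmga2, a let-7 target, had 134, 193 and 496 and was 3.699-fold higher, and Myc was the third.

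MicroRNA genes on the array numbered 478, of which 160 were compared, 7 were at least 2-fold higher and 12 lower. With microRNA host genes counted in, 4.35% of 161 compared were higher and 7.45% lower, against 3.59% and 5.38% over all genes compared. They were examined after their values were seen, and the probe sets measure the transcript of the gene and not the mature microRNA. All 5 genes of the miR-302/367 cluster, at 127545228 to 127545807 on chromosome 3 of GRCm38.p6, were higher in mEpiSCs. This cluster is transcribed as 1 primary RNA in pluripotent cells, so its genes are not separate observations. Mir302a had 65.03, 43.9 and 439.6 and was 6.76-fold higher, and Mir302c had 116, 49.1 and 543 and was 4.698-fold higher. Mir302d had 46.9, 35.01 and 184 and was 3.93-fold higher, Mir367 had 42.2, 35.7 and 146 and was at least 3.21-fold higher, and Mir302b had 33.4, 27.7 and 105 and was at least 2.31-fold higher. For Mir302a and Mir302c, Activin+PD was brighter than 2i, which was near background. Mir290a, of the cluster known from naive mESCs, was at 502, 315 and 441, within 2-fold.

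The mature sequences of RefSeq, with the seed (bases 2 to 8) in capitals, show how the higher genes are related.
mmu-miR-302b-3p: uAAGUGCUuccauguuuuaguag
mmu-miR-302d-3p: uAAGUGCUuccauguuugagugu
mmu-miR-302c-3p: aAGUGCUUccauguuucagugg
mmu-miR-290a-3p: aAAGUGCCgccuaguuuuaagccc
mmu-miR-367-3p: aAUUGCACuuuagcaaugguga
mmu-miR-363-3p: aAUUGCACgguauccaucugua
The 302b and 302d forms share the seed AAGUGCU, and the 302c form lists the seed AGUGCUU. The seed of miR-290a-3p is AAGUGCC. MiR-367-3p and miR-363-3p share the seed AUUGCAC although their genes lie on different chromosomes. Mir363 and Mir18b were the other higher microRNA genes. They are the outermost of 5 genes matched on the array at 52741693 to 52742413 on chromosome X. Mir92-2, Mir19b-2 and Mir20b between them were not above background on the arrays compared. Mir18b had 30.6, 44.8 and 116 and was at least 2.55-fold higher. Mir363 had 35.6, 36.7 and 76.1; it was dim, and the limit set by background is 1.68-fold.

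**Figure D5:**
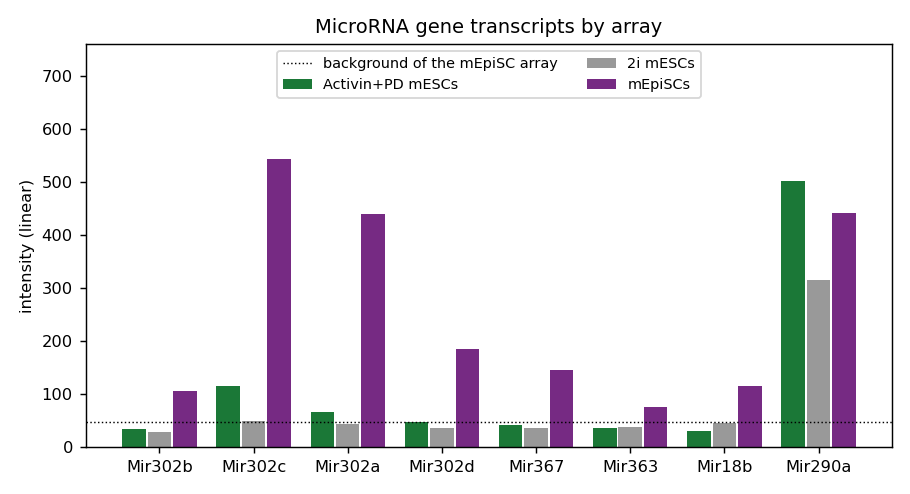
Linear intensity of 8 microRNA genes on the Activin+PD (green), 2i (grey) and mEpiSC (purple) arrays, 1 bar per array, with the mEpiSC background as a dotted line. The 5 genes of the miR-302/367 cluster, Mir363 and Mir18b are highest in mEpiSCs, and Mir290a is bright on every array.

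Among the lower microRNA genes, 3 lay in the large cluster at 109709060 to 109743236 on chromosome 12. Of its 30 genes on the array, 14 were compared. Mir453 there had 206, 316 and 91.6 and was 2.25-fold lower. Mir679 and Mir300 there were not above background in mEpiSCs, and the limits set by background are 1.66-fold and 1.44-fold. Outside that cluster, Mir28b had 156, 131 and 49.8 and was 3.14-fold lower. Mir196a-1, of the Hox clusters, had 109, 82.7 and 31.9 and was at least 2.28-fold lower. Mir3095 had 53.8, 33.75 and 24.1, with a limit of 1.13-fold.

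Over all genes above background on both arrays, leaving out predicted models and small RNAs, the higher genes began with Fndc3c1, at 52.9, 68.4 and 1283, 24.2-fold higher, and Epha1. Kcnj3, a potassium channel gene, had 50.4, 60.6 and 838 and was 16.6-fold higher, with 1.197 on the log2 scale from a dimmer second probe set. Psors1c2 had 69.4, 78.6 and 1151 and was 16.6-fold higher. Fabp5, a fatty acid binding protein gene, had 47.9, 57.4 and 675 and was 14.1-fold higher, and its other probe sets gave log2 differences of 2.37, 2.73 and 4.02. Alox15, a lipoxygenase gene, had 73.1, 70.04 and 939 and was 12.8-fold higher. Nefl, the light neurofilament gene, had 189.6, 172 and 2006 and was 10.6-fold higher, and Ap1s3 had 52.7, 47.5 and 558 and was 10.6-fold higher. Fgf5, Fst, Sema6a and Epcam completed the 12.

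Genes not above background in Activin+PD and bright in mEpiSCs were led by St6gal2, a sialyltransferase gene, with 45.4, 47.3 and 1003, at least 22.1-fold higher. Slc39a8, a zinc and manganese transporter gene, had 40.9, 38.7 and 989 and was at least 21.8-fold higher. Calcr, the calcitonin receptor gene, had 42.8, 42.9 and 479.6 and was at least 10.6-fold higher. Has2, which makes hyaluronan, had 43.5, 67.9 and 440.3 and was at least 9.695-fold higher, and Galnt3, which starts O-glycans, had 44.03, 49.3 and 446 and was at least 9.83-fold higher. With Cer1 these were the 6 highest by that limit, and in 2i they ranged from 32.6 for Cer1 to 67.9 for Has2.

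The lower genes above background on both arrays began with Jam2 and Zfp42. Pla2g1b, a secreted phospholipase gene, had 1815, 1896 and 65.97 and was 27.5-fold lower, and Zfp936, a zinc finger gene, had 1081, 985 and 62.2 and was 17.4-fold lower. Aqp3, a water and glycerol channel gene, had 870.5, 549 and 58.6 and was 14.9-fold lower, and Mreg had 1509.9, 731 and 102 and was 14.8-fold lower. Nid1, Tbx3, Pecam1, Tet2, Lefty2 and Gdf3 completed the 12. Lefty2 and Mreg were higher in Activin+PD than in 2i by over 2-fold, and the other 10 by less or not at all.

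Among lower genes at background in mEpiSCs, Zfp640 had 2821, 3658 and 37.7 and was at least 59.3-fold lower, and its other 2 probe sets gave log2 differences of -6.21 and -6.73. Zfp981 had 1965, 1789.8 and 39.1 and was at least 41.3-fold lower. Both are zinc finger genes with close relatives, among which the probes may cross-react. Calcoco2, Fbxo15, Nr0b1 and Sohlh2 completed the 6.

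Of 13 housekeeping genes compared, 1 was at least 2-fold higher (7.69%) and 0 lower, against 3.59% and 5.38% over all genes compared. Within 2-fold were Gapdh at 8395, 7873 and 8443, Actb at 1978, 2113 and 2277 and Eef2 at 5948, 5814 and 5778. B2m, the light chain of MHC class I, was the higher gene, at 248, 409.7 and 826, 3.34-fold higher. Hprt, on that list, was not above background on any array, at 28.4, 27.2 and 27.7. The Y-linked genes Uty at 234, 225 and 135 and Eif2s3y at 574, 535 and 345 were lower in mEpiSCs by less than 2-fold, and Uba1y, with 541, 1120.2 and 58.7, was 9.22-fold lower.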

How the data were processed

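Total RNA from 3 mouse cultures was measured on Mouse Gene 2.0 ST arrays (Affymetrix), 1 per culture, per the series' design text. The submitters' processing notes name RMA, and the same design text names GeneSpring GX 11.5. The deposited table held 1 intensity per probe set and array on a linear scale, judged from the values, with medians of 50.9 (Activin+PD), 51.2 (2i) and 51.9 (mEpiSC); log2 was taken here. Because RMA equalises the arrays, the values cannot show whether cells held more or less RNA in total. The lowest values of 18.9, 19.0 and 19.1 may hold a constant added before deposit, which would make the folds of dim genes smaller. Of 33793 probe sets, 23521 had 1 gene symbol in the platform annotation, 1814 several and 8458 none. For 23328 probe sets the gene identifier was found in RefSeq GRCm38.p6, and the symbol was taken from there, changed or not. Each gene was read from the single-symbol probe set that was brightest on average, and 1082 genes had at least 2.

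Python 3.11.15 with numpy 2.4.6 and pandas 2.3.3 was used, and the counting was tested on simulated data. The number of arrays limits the precision. The genes and the 37 lists (826 genes, 758 matched) were chosen with earlier results of these data known. Named were the 4 label markers, the 12 largest differences each way above background on both arrays, the 6 largest limits each way, up to 8 largest and 3 smallest differences per list, defining markers of the cell types, and any ERK feedback, Activin/Nodal target, naive or primed gene; genes outside this are marked as chosen after their values were seen. MicroRNA genes were matched to RefSeq by gene identifier (400 of 478). The comparisons of either culture with 2i share arrays with this one, so no overlap between comparisons was computed.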

Additional observations from a re-analysis of the deposited data

How the results depend on the processing

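No replicate check and no test was possible with 1 array per culture. No paired analysis was possible because each group has 1 array. At 3-fold, 208 genes were higher and 345 lower in mEpiSCs, and at 1.5-fold 1256 and 1574. Under the other 8 settings the counts ranged from 415 (both arrays above background) to 688 (16 subtracted) higher and from 597 to 972 lower, under the same settings; none differed by over 1.5 times from 516 and 773. With both arrays required above background, the list median turned from -0.13 to 0.0295 for LIF signalling and from -1.26 to 0.093 for 2-cell-like genes, which then had 5 members. The same filter turned Activin/Nodal targets from 0.057 to -0.088 and the LIN28 axis from 0.063 to -0.041. Extraembryonic endoderm, at 0.0029, went as low as -0.37 with the 99th percentile as background, and p53 genes, at -0.027, reached 0.036 with no filter. The other 30 of 36 list medians kept their sign under these 8 settings. Of 191 named genes at least 2-fold apart, 12 fell under 2-fold in at least 1 setting and 0 changed sign. Subtracting 16 moved 81 of 407 named genes by more than the probe set spread, and the mean of probe sets moved 16 of 405, among them Etv5 (0.44), Dusp6 (1.14) and Kcnj3 (2.63). The median log2 difference of all genes stayed between 0.011 and 0.051. Signals near background limit what can be said of dim genes.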

Other observations

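Genes of chromosome X were apart more often than others in both directions: of 487 compared, 42 (8.62%) were at least 2-fold higher in mEpiSCs and 53 (10.9%) lower, against 3.59% and 5.38% over all genes compared. Fndc3c1, which was higher, and Rhox5 and Nr0b1, which were lower, are among them. Xist, the RNA that coats the inactive X, was not above background on any array, at 38.5, 45.4 and 34.4 (Activin+PD, 2i, mEpiSC), while Ftx, a neighbouring noncoding gene, had 54.5, 60.4 and 174.

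Gene families that share a symbol stem, looked at with the values in view, differed in both directions. Over all genes compared, the shares were 3.59% higher and 5.38% lower. Of 9 Pramel genes compared, 5 were at least 2-fold lower (55.6%) and 0 higher, with a median of -2.23. Of 12 Platr genes, noncoding transcripts named for pluripotency, 4 were lower (33.3%) and 0 higher. Of 17 Klf genes, 5 were lower (29.4%) and 0 higher. Among 430 genes named as Gm models, 40 were lower (9.3%) and 2 higher (0.465%). Among 538 Rik clones, 22 (4.09%) were lower and 1 (0.186%) higher. Leaning the other way, 3 of 24 Krt genes (12.5%) and 2 of 12 Cldn genes (16.7%) were higher and 0 lower. Of 17 Sema genes, 3 were higher (17.6%) and 1 lower (5.88%). Of 54 Kcn genes, 3 were higher (5.56%) and 1 lower (1.85%), not far from the shares over all genes. Zinc finger genes named Zfp had 26 lower (7.93%) and 9 higher (2.74%) of 328, with a median of 0.019. Members of such families can share probe sequence.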
